A study of Mus musculus with 8 samples.

Results

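Macrophage identity and scavenger genes were followed in cultured mouse spleen CD8+ dendritic cells through 9 genes: Adgre1, Csf1r, Cd68, Mrc1, Msr1, Stab1, Lyz2, Spic and Clec4a2. They were taken by gene symbol from the annotation of the array, and were chosen with earlier results of these data known. They make up 9 of the 8251 genes and 14 of the 12422 probe sets measured. The 4 groups held 2 arrays each: IFN-γ for 16 hours, medium alone for 16 hours, IFN-γ for 4 hours and medium alone for 4 hours. The treated cells received mouse IFN-γ (interferon gamma) at 200 U/ml. Cells of every group came from spleens of female DBA/2J mice, 60 days old, all treated for 9 days with 10 µg of Flt3 ligand, which increases dendritic cell numbers. The series is titled for dendritic cells competent for IDO, an enzyme that breaks down tryptophan. Whether both arrays of a group stem from different animals or cultures is not stated, so p-values here reflect the spread between arrays alone, and this spread may be technical.

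Macrophages depend on signalling through the CSF1 receptor, encoded by Csf1r, and are recognised by surface proteins such as the adhesion receptor encoded by Adgre1. In spleen, red pulp macrophages clear old red blood cells and develop through the ETS-family transcription factor Spi-C, encoded by Spic. Scavenger receptors bind modified lipoproteins, dying cells and microbial products. IFN-γ activates macrophages and dendritic cells, while CD8+ dendritic cells are known for cross-presentation of antigen.

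The label of the cells was checked first. Cd8a read between 8.74 and 9.08 on the log2 intensity scale over the 8 arrays, and Itgax, which encodes the integrin CD11c of dendritic cells, between 6.13 and 6.51. Both were above the antisense control probe sets of their array, which gauge unspecific signal and had medians of 5.49 to 5.93. Of 13 measured CD8+ dendritic cell markers, 3 were below these controls on all arrays, Itgae, Zbtb46 and Cd36. Markers of other cells were above them too, among them Cd79b of B cells (9.52 to 10.07) and S100a9 of neutrophils (9.98 to 10.33). Of the 9 macrophage and scavenger genes, 4 were above these controls on all 8 arrays (Csf1r, Cd68, Msr1 and Lyz2), each on its brightest probe set. Adgre1, Stab1 and Spic were above them in some groups only. Mrc1 and Clec4a2 were below them on all arrays, so the size of their differences is uncertain. The 5 dimmer probe sets of Adgre1, Csf1r, Cd68, Msr1 and Lyz2 were also below them on all arrays. Values below are those of the brightest probe set unless stated.

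The group means of 8 of the 9 genes stood in 1 order. The lowest was IFN-γ at 4 hours, then medium at 4 hours, then IFN-γ at 16 hours, and the highest was medium at 16 hours. Spic had the lowest mean with IFN-γ at 16 hours, then medium at 16 hours, IFN-γ at 4 hours and medium at 4 hours. In each of the 9 genes the arrays of the middle neighbours of the order did not overlap, a contrast that was not tested. In bulk RNA, fewer cells of a type and less RNA per cell cannot be told apart. IFN-γ and medium overlapped at 16 hours for Adgre1 and Msr1 and at 4 hours for Msr1.

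**Figure D1:**
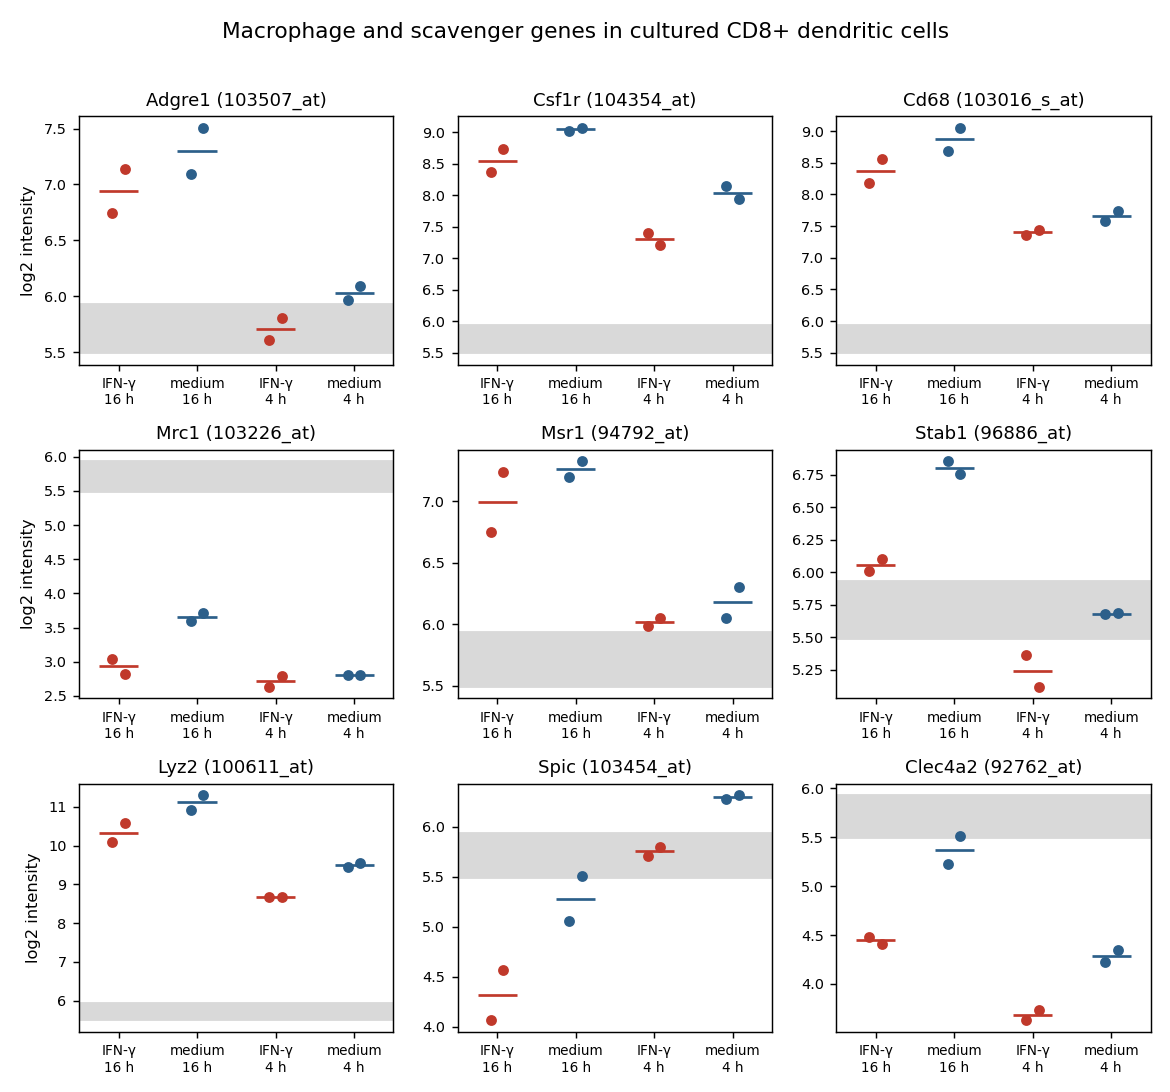
Log2 intensity (y axis) of the 9 genes on each of the 8 arrays, 1 panel per gene with its probe set. Points are arrays, horizontal lines are means of the 2 arrays, IFN-γ is red and medium blue, and the grey band spans 5.49 to 5.93, the range of the antisense control median over arrays. Spic is lower at 16 than at 4 hours, and the other 8 genes are higher. The y axes differ between panels and do not start at 0.

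Csf1r, the receptor for the growth factors CSF1 and IL-34, read 8.36 and 8.74 with IFN-γ and 9.01 and 9.07 in medium at 16 hours. At 4 hours it read 7.41 and 7.21 with IFN-γ, against 8.15 and 7.94 in medium. Both groups at 16 hours thus lay above both groups at 4 hours, and IFN-γ lay below medium at each time without overlap. In medium it rose by 1.0 on the log2 scale between 4 and 16 hours (SE 0.15, Benjamini-Hochberg adjusted p = 0.00821 by limma, as for all adjusted p-values here). With IFN-γ it rose by 1.24 over the same time (SE 0.15, adjusted p = 0.0051). Both calls were lost when the 2 Csf1r probe sets were averaged (adjusted p = 0.161 in medium and 0.0661 with IFN-γ). IFN-γ against medium gave -0.49 at 16 hours (SE 0.15, adjusted p = 0.759). The 4-hour value was -0.73 (SE 0.15, adjusted p = 0.148), and it passed once replicate number entered as a block (adjusted p = 0.0319). The dimmer Csf1r probe set differed by -0.01 between 16 and 4 hours in medium (adjusted p = 0.99).

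Adgre1, whose protein is the usual surface marker of mouse macrophages, read 6.75 and 7.14 with IFN-γ and 7.09 and 7.51 in medium at 16 hours. Its 4-hour readings were 5.60 and 5.81 with IFN-γ, on either side of the antisense median of their arrays, and 5.97 and 6.09 in medium. Every array at 16 hours was thus above every array at 4 hours. It rose by 1.27 in medium between 4 and 16 hours (SE 0.18, adjusted p = 0.00571), a 2.41-fold change, and by 1.24 with IFN-γ (SE 0.18, adjusted p = 0.00982), the second of uncertain size as its 4-hour level was near the controls. The groups overlapped between IFN-γ and medium at 16 hours, where Adgre1 differed by -0.36 (95% interval -0.75 to 0.04). The difference at 4 hours was -0.33 (-0.72 to 0.07). The dimmer Adgre1 probe set, below the controls, passed no test.

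Msr1, the class A scavenger receptor for modified lipoproteins and bacteria, read 6.75 and 7.24 with IFN-γ and 7.20 and 7.33 in medium at 16 hours. Readings at 4 hours were 5.98 and 6.05 with IFN-γ and 6.05 and 6.31 in medium. IFN-γ and medium thus overlapped at both times. Msr1 rose by 1.09 in medium (SE 0.17, adjusted p = 0.00869) and by 0.98 with IFN-γ (SE 0.17, adjusted p = 0.0213) between 4 and 16 hours. The differences between IFN-γ and medium were -0.27 at 16 hours (95% interval -0.64 to 0.11) and -0.16 at 4 hours (-0.54 to 0.22). The dimmer Msr1 probe set rose by 0.86 with time in medium (SE 0.13, adjusted p = 0.00899). With IFN-γ that probe set differed by 0.55 (adjusted p = 0.0755, or 0.0115 with the replicate block).

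Cd68, which encodes the lysosomal glycoprotein macrosialin, read 8.18 and 8.55 with IFN-γ and 8.68 and 9.05 in medium at 16 hours, against 7.37 and 7.44 with IFN-γ and 7.57 and 7.74 in medium at 4 hours. The arrays of IFN-γ lay below those of medium at both times. Cd68 rose by 1.21 in medium (SE 0.16, adjusted p = 0.00529) and by 0.97 with IFN-γ (SE 0.16, adjusted p = 0.0209). For IFN-γ against medium the value was -0.50 at 16 hours (95% interval -0.87 to -0.13, adjusted p = 0.9) and -0.26 at 4 hours (-0.62 to 0.11). The dimmer Cd68 probe set differed by 0.09 with time in medium (adjusted p = 0.733).

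Stab1, the scavenger receptor stabilin-1 of tissue macrophages and sinus endothelium, read 6.01 and 6.10 with IFN-γ and 6.86 and 6.76 in medium at 16 hours. The 4-hour arrays gave 5.36 and 5.12 with IFN-γ, below the antisense controls, and 5.68 and 5.69 in medium, on either side of them. Medium at 16 hours was the highest group, and no groups overlapped. It fell by 0.75 with IFN-γ against medium at 16 hours (SE 0.12, adjusted p = 0.0499), a value just under the threshold of 0.05. That call was lost whichever of the 8 arrays was left out, with adjusted p between 0.0913 and 0.371. It was also lost with median centring (0.0695), a trended prior (0.0506), array weights (0.256) and a fit of only the arrays compared (0.375), and held with the replicate block (0.00617). Stab1 at 4 hours differed by -0.44 (SE 0.12, adjusted p = 0.359). It rose with time by 1.12 in medium (SE 0.12, adjusted p = 0.0019), and by 0.81 with IFN-γ (SE 0.12, adjusted p = 0.0115). Since its 4-hour levels were not above the controls on both arrays, the size of these rises is uncertain.

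Clec4a2, a C-type lectin receptor with an inhibitory motif (DCIR), read 4.48 and 4.41 with IFN-γ and 5.23 and 5.51 in medium at 16 hours, against 3.63 and 3.73 with IFN-γ and 4.23 and 4.35 in medium at 4 hours. All 4 groups were apart from each other, and all were below the antisense controls, so the size of the differences is uncertain. It fell by 0.92 with IFN-γ at 16 hours (SE 0.13, adjusted p = 0.0272). The difference at 4 hours was -0.61 (SE 0.13, adjusted p = 0.15), which passed once the block was added (0.0194). The fall at 16 hours was not called without array 2 of IFN-γ at 16 hours (adjusted p = 0.0791), array 2 of medium at 16 hours (0.18), either array of IFN-γ at 4 hours (0.0751 each) or either array of medium at 4 hours (0.0795 each), nor with array weights (0.116) or only the arrays compared (0.275). Between 4 and 16 hours Clec4a2 rose by 1.08 in medium (SE 0.13, adjusted p = 0.00264) and by 0.77 with IFN-γ (SE 0.13, adjusted p = 0.0189). Clec4a2 has near relatives in the mouse genome, among them Clec4a1, Clec4a3 and Clec4a4, and whether its probe set also binds their RNA was not tested.

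Mrc1, the mannose receptor (CD206), read 3.04 and 2.83 with IFN-γ and 3.59 and 3.71 in medium at 16 hours. Readings at 4 hours were 2.63 and 2.79 with IFN-γ and 2.80 and 2.81 in medium. Medium at 16 hours stood above the other 3 groups, all of it under the antisense controls. Mrc1 rose by 0.84 with time in medium (SE 0.12, adjusted p = 0.00677). With IFN-γ it differed by 0.22 (95% interval -0.05 to 0.50, adjusted p = 0.471). At 16 hours the contrast of IFN-γ and medium was -0.72 (SE 0.12, adjusted p = 0.0685, and 0.012 under the replicate block), and the 4-hour difference was -0.10 (95% interval -0.37 to 0.18).

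Lyz2, lysozyme M, an enzyme that cuts bacterial cell walls and is abundant in macrophages and granulocytes, read 10.09 and 10.58 with IFN-γ and 10.92 and 11.31 in medium at 16 hours. In the 4-hour groups it read 8.67 and 8.69 with IFN-γ, against 9.45 and 9.56 in medium. The groups did not overlap at either time. Lyz2 rose by 1.61 in medium (SE 0.18, adjusted p = 0.00217) and by 1.66 with IFN-γ (SE 0.18, adjusted p = 0.00273), the largest rises measured among the 9 genes. With IFN-γ the level at 16 hours differed from medium by -0.78 (SE 0.18, adjusted p = 0.258, blocked 0.0146). The same contrast at 4 hours was -0.83 (SE 0.18, adjusted p = 0.172, blocked 0.00928). The 4-hour difference also passed with array weights (0.00704), with only the arrays compared (0.0119) and without either array of IFN-γ at 16 hours (0.0383 each). The dimmer Lyz2 probe set differed by 0.26 with time in medium (adjusted p = 0.524), and by 0.56 under IFN-γ (adjusted p = 0.169, or 0.0335 with the block). A further probe set, annotated to Lyz1 and Lyz2 together, was left out, and whether the brightest Lyz2 probe set also binds Lyz1 RNA was not tested.

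Spic, the transcription factor of red pulp macrophages, went the other way with time. It read 4.06 and 4.57 with IFN-γ and 5.06 and 5.50 in medium at 16 hours, both groups below the antisense controls, against 5.71 and 5.80 with IFN-γ and 6.28 and 6.32 in medium at 4 hours. Spic fell by 1.02 in medium (SE 0.19, adjusted p = 0.0198) and by 1.44 with IFN-γ (SE 0.19, adjusted p = 0.00762) between 4 and 16 hours. Its level was below the controls at 16 hours, and on either side of them with IFN-γ at 4 hours. The size of these falls and of its IFN-γ differences, at each time and over both, is therefore uncertain. For IFN-γ against medium, Spic was at -0.96 at 16 hours (SE 0.19, adjusted p = 0.126, blocked 0.0049) and at -0.55 at 4 hours (SE 0.19, adjusted p = 0.723).

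Between 4 and 16 hours in medium, 8 of the 9 genes rose (Adgre1, Csf1r, Cd68, Mrc1, Msr1, Stab1, Lyz2 and Clec4a2) and 1 fell, Spic. Over all 8251 genes, 1.61% rose and 3.04% fell. Of the 14 probe sets 9 rose and 1 fell, against 1.71% and 2.57% of all probe sets. The arrays of the 2 times did not overlap for any of the 9 genes, of which 8 were higher at 16 hours (29.8% of all genes) and 1 lower (24.2%). The median log2 difference of the 9 was 1.09, and that of all genes 0.04. The 3' to 5' signal ratio of Actb rises as RNA degrades or labelling shortens. It was 1.63 and 1.57 in medium at 16 hours and 2.04 and 2.20 in medium at 4 hours. The ratio of Gapdh was 0.89 and 0.83 at 16 hours and 1.14 and 1.31 at 4 hours in medium. The part of these ratios in this comparison was not tested. The calls of Adgre1, Cd68, Csf1r, Mrc1, Msr1 and Spic were each lost without array 1 of medium at 4 hours (adjusted p = 0.0777, 0.0764, 0.0526, 0.0877, 0.109 and 0.137). Those of Csf1r, Mrc1 and Spic were also lost without array 2 of that group (0.0979, 0.084 and 0.151), that of Msr1 without array 2 of medium at 16 hours (0.0511), and that of Spic without array 1 of that group (0.114). Stab1, Lyz2 and Clec4a2 were called whichever array was left out.

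With IFN-γ present throughout, 7 of the 9 genes rose between 4 and 16 hours and Spic fell, against 1.01% of all genes that rose and 1.61% that fell. Of the 14 probe sets 7 rose and 1 fell, against 0.821% and 1.30% of all probe sets. Again 8 genes were higher without overlap (20.8% of all genes) and 1 lower (19.9%). Mrc1 was the gene that did not pass. The median of the 9 was 0.97, and that of all genes 0.04. Here Actb ratios stood at 1.68 and 1.66 on the 16-hour arrays and at 1.47 and 1.65 on the 4-hour arrays. Gapdh ratios stood at 0.83 and 0.91 at 16 hours and at 0.88 and 0.92 at 4 hours. Their part was not tested. Without array 1 or array 2 of IFN-γ at 4 hours, the calls of Adgre1 (adjusted p = 0.117 and 0.0759), Cd68 (0.18 and 0.162), Msr1 (0.18 and 0.164), Stab1 (0.057 and 0.155), Clec4a2 (0.183 and 0.139) and Spic (0.0669 and 0.0802) were lost. That of Csf1r was lost without array 2 (0.0759), and that of Clec4a2 also without array 1 of IFN-γ at 16 hours (0.0565). Lyz2 was called whichever array was left out.

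**Figure D2:**
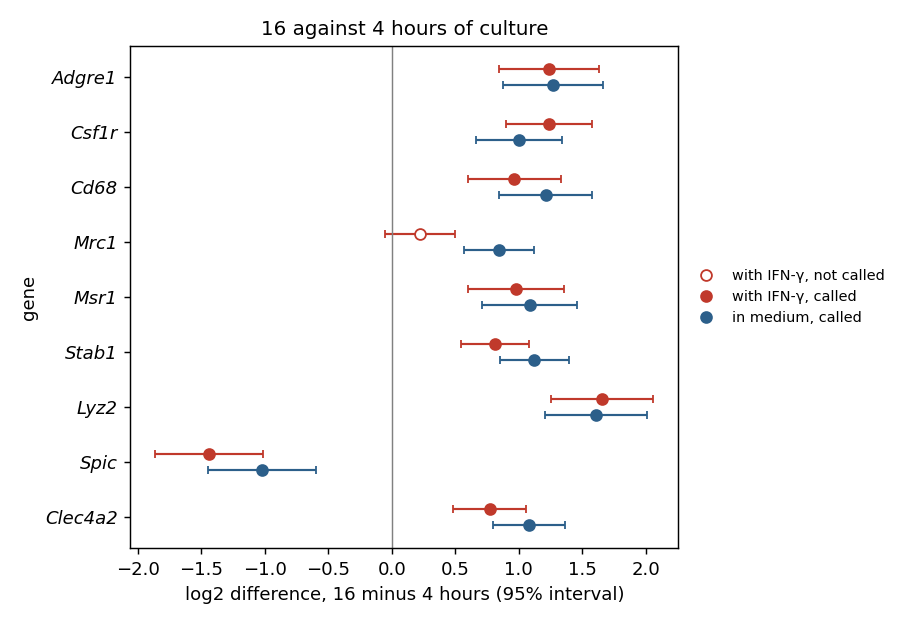
Log2 difference between 16 and 4 hours (x axis) for the 9 genes (y axis), with IFN-γ (red) and in medium (blue). Points are limma estimates from 2 against 2 arrays, bars are 95% intervals, and filled points passed an adjusted p of 0.05. Spic lies below 0 in both, Lyz2 has the largest rise at 1.66 and 1.61, and Mrc1 with IFN-γ, at 0.22, is the open point.

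At 16 hours all 9 genes had a lower mean with IFN-γ than in medium, by 0.27 to 0.96 on the log2 scale, and 2 of them fell by the test, Stab1 and Clec4a2. Over all genes, 0.121% fell, and of all probe sets 0.0966%. The fit with the replicate block called 5 of the 9 lower, these 2 with Mrc1, Lyz2 and Spic, against 0.448% of all genes and 0.435% of all probe sets. The arrays of IFN-γ lay below those of medium without overlap in 7 of the 9, against 9.60% of all genes. The median of the 9 was -0.72, and that of all genes was -0.00. This comparison and that of time in medium share the medium arrays at 16 hours.

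At 4 hours the means of all 9 were again lower with IFN-γ, by 0.10 to 0.83. None of the 9 passed the test by limma, where 0% of all genes were called lower and 0.279% higher. At an unadjusted p under 0.05, 5 of the 9 were lower (Csf1r, Stab1, Lyz2, Spic and Clec4a2), against 1.55% of all genes. Blocking on replicate called 3 lower, Csf1r, Lyz2 and Clec4a2, against 0.218% of all genes and 0.177% of all probe sets. Array weights called the same 3 (adjusted p = 0.01, 0.00704 and 0.0134). That fit called more throughout, 167 of the 12422 probe sets in both directions together, against 32 in the main fit. The arrays did not overlap in 8 of the 9, against 19.2% of all genes, so a lower reading on both arrays was common at this time. The median of the 9 was -0.44, and that of all genes was -0.01. The Actb ratios were 1.47 and 1.65 with IFN-γ and 2.04 and 2.20 in medium, and their part was not tested. At 16 hours they were 1.68 and 1.66 with IFN-γ and 1.63 and 1.57 in medium.

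**Figure D3:**
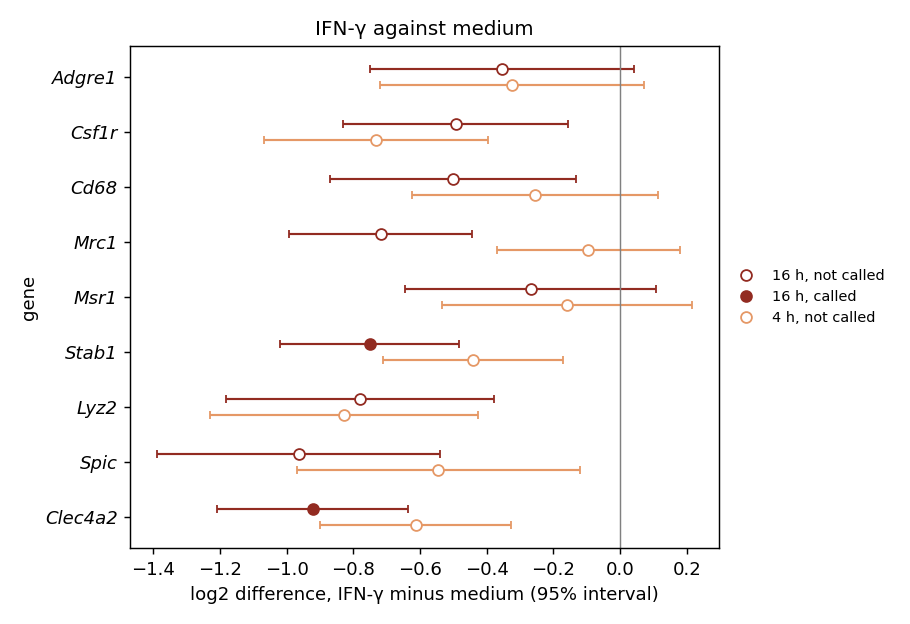
Log2 difference of IFN-γ minus medium (x axis) for the 9 genes (y axis), at 16 hours (dark red) and 4 hours (orange). Points are limma estimates from 2 against 2 arrays, bars are 95% intervals, and filled points passed an adjusted p of 0.05, which at 16 hours were Stab1 (-0.75) and Clec4a2 (-0.92). Every estimate lies below 0.

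The effect of IFN-γ was also estimated over both times together, in a model of time plus treatment on all 8 arrays. By this test 5 of the 9 genes were lower with IFN-γ: Csf1r (-0.61, SE 0.11, adjusted p = 0.0315), Stab1 (-0.60, SE 0.09, adjusted p = 0.016), Lyz2 (-0.80, SE 0.12, adjusted p = 0.0121), Spic (-0.75, SE 0.14, adjusted p = 0.048) and Clec4a2 (-0.77, SE 0.10, adjusted p = 0.00384). Over all genes 0.242% were lower, and of all probe sets 0.169%. With the replicate block Adgre1 (-0.34, adjusted p = 0.0414) and Cd68 (-0.38, adjusted p = 0.0467) passed too, which makes 7 of 9, against 0.727% of all genes and 0.555% of all probe sets. Mrc1 (-0.41, adjusted p = 0.483) and Msr1 (-0.21, 95% interval -0.46 to 0.03) did not pass in either fit. The call of Clec4a2 held whichever array was left out (highest adjusted p = 0.0248 over its 14 alternatives). Those of Csf1r and Spic held in 1 of 8 such fits, that of Stab1 in 3 and that of Lyz2 in 5, with highest adjusted p of 0.131, 0.162, 0.0769 and 0.0646 among the fits that left out an array. The call of Csf1r was also lost with median centring (0.0556) or with its 2 probe sets averaged (0.958), and that of Spic with quantile normalization (0.119) or median centring (0.0724).

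RefSeq promoter windows are shown for Stab1, Clec4a2, Lyz2 and Spic, 4 of the 5 genes that were lower over both times with IFN-γ. That of Csf1r was not used here. Each window holds 250 bases before and 50 after the annotated start, 5′ to 3′ along the gene, in assembly GRCm38.p6. Stab1 lies at chr14:31168592-31168891 on the minus strand, Clec4a2 at chr6:123122440-123122739 on the plus strand, Lyz2 at chr10:117282223-117282522 on the minus strand and Spic at chr10:88682974-88683273 on the minus strand. Capitals mark matches, on either strand, to 3 motifs: GAGGAA (the core bound by the ETS factor PU.1), the interferon-stimulated response element (GAAA, any 2 bases, GAAA) and TGANTCA (bound by AP-1).
Stab1: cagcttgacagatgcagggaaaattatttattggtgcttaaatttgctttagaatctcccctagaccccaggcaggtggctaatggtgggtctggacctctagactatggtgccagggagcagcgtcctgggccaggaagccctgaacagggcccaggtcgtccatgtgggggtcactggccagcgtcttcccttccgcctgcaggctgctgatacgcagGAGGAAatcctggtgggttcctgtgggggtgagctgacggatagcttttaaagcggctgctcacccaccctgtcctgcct
Clec4a2: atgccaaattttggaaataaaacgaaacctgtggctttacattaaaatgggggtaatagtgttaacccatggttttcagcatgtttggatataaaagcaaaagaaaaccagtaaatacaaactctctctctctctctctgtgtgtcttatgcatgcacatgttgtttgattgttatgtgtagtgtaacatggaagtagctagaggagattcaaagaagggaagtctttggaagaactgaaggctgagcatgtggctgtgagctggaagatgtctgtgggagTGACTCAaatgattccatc
Lyz2: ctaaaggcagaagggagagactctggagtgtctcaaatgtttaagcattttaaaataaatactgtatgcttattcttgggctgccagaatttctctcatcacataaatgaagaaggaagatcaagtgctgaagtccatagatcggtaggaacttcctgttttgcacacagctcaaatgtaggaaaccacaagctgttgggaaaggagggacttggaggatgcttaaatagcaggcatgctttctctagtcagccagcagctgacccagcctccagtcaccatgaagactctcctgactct
Spic: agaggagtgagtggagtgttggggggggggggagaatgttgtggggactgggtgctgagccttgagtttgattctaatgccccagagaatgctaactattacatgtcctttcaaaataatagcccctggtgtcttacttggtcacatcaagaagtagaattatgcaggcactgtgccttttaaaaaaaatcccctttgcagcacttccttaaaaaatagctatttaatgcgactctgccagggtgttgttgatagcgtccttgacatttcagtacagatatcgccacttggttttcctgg
Stab1 holds 1 match to GAGGAA, on the strand shown, which begins 30 bases before the start. Clec4a2 holds 1 match to TGANTCA, which begins 31 bases after the start. Lyz2 and Spic hold none of the 3. No 2 of these matches overlap. Of all 32851 windows, 28.3% hold GAGGAA, 3.44% the response element and 7.81% TGANTCA. Among the 6 of the 9 genes with a window, 3 hold GAGGAA (Mrc1, Cd68 and Stab1), 0 the response element and 2 TGANTCA (Clec4a2 and Cd68). These are matches of letters and not measured binding.

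A direct test asked if the response to IFN-γ changed with time, as the difference of the effects at 16 and at 4 hours, which is also the difference between the time courses with IFN-γ and in medium. None of the 9 passed, by limma or with the replicate block, against 0% of all genes called by limma and, with the block, 0.109% of all genes and 0.242% of all probe sets called lower. The largest was that of Mrc1 at -0.62 (95% interval -1.01 to -0.23, adjusted p = 0.844, or 0.203 with the block), which at an unadjusted p under 0.05 was the 1 of the 9 that passed, against 1.28% of all genes called lower. Spic followed at -0.42 (-1.02 to 0.18), Stab1 and Clec4a2 at -0.31 each (-0.69 to 0.07 and -0.71 to 0.10), and Cd68 at -0.25 (-0.77 to 0.28). Csf1r was at 0.24 (-0.24 to 0.71), Msr1 at -0.11 (-0.64 to 0.42), Lyz2 at 0.05 (-0.52 to 0.62) and Adgre1 at -0.03 (-0.59 to 0.53). These intervals reach past 0.5 on at least 1 side for each gene, so changes of that size lay inside them with 2 arrays a group.

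Across the 8 arrays, the 28 pairs among the 8 genes other than Spic had Pearson r between 0.77 and 0.99, and the 8 pairs with Spic between -0.62 and -0.26. These describe 8 arrays in 4 groups, and the arrays share the time difference. Likeness was read among genes whose highest group mean was above the antisense controls and whose group means spanned at least 1 on the log2 scale. This rule left 148 or 149 candidates for each gene, without Mrc1 and Clec4a2. Those most like Adgre1 were Cd68 (r = 0.99), Pla2g7, a phospholipase that acts on platelet-activating factor (0.99), and Msr1 (0.99). Csf1r was most like Tyrobp, the adaptor DAP12 (0.99), Gsn, the actin-severing protein gelsolin (0.99), and Lyz2 (0.98). Cd68 was most like Adgre1, Smpdl3a (0.99) and Lyz2 (0.98), and Msr1 most like Smpdl3a, Pla2g7 and Adgre1 (0.99 each). Lyz2 was most like Gsn (0.99), Hexa, a subunit of lysosomal hexosaminidase (0.99), and Ctsb, the protease cathepsin B (0.99). Stab1 was most like Cd93 (0.99), Man2b1, a lysosomal mannosidase (0.99), and Cd300c2 (0.99). Clec4a2 and Mrc1 shared their nearest genes in part, Ctsl, the protease cathepsin L (0.98 and 0.94), and C3ar1, the receptor for complement fragment C3a (0.98 and 0.95). The remaining ones were Plbd1 (0.97) for Clec4a2 and Tmem37 (0.96) for Mrc1. Spic was most like Eno2, a neuronal form of enolase (0.97), Adam8, a membrane protease (0.96), and the cytokine gene Il1b (0.96).

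Other genes of the same biology were read from lists that leave out the 9. Some genes stand in more than 1 list. The shares of all genes given above for changes with time are from limma without the block. Blocked counts over time, for any list here or below, therefore have no share of all genes beside them. They cannot be set against the shares without the block. Of 19 measured macrophage markers, 11 rose and 0 fell with time in medium, with a median of 0.63 (all genes 0.04), and 6 rose with IFN-γ (11 with the block, which also called 1 lower). C1qa, which encodes a chain of complement C1q, rose by 1.94 in medium (adjusted p = 0.000177) and by 1.76 with IFN-γ (adjusted p = 0.000206), and was not called for IFN-γ against medium. Fcgr1, the high-affinity Fc receptor for IgG, rose by 2.08 in medium and by 1.60 under IFN-γ. At 16 hours 2 of the 19 fell with IFN-γ, Cd14, the co-receptor for lipopolysaccharide (-1.08, adjusted p = 0.0137), and C3ar1 (-0.96, adjusted p = 0.0166), and 4 did with the replicate block. The median IFN-γ difference of the 19 was -0.17 at 16 hours and 0.00 at 4 hours, against -0.72 and -0.44 for the 9 genes. At 4 hours limma called no gene of any list. The block called 1 gene lower in each of 5 lists, Cd14 (-0.69, blocked adjusted p = 0.00335) in the macrophage and scavenger lists, Clec4d (-0.66, 0.0356), Cebpa (-0.54, 0.0262) and Sirpa (-0.59, 0.0492), and 1 higher in each of 2, Irf8 (0.61, 0.00891) and Klrk1 (0.49, 0.0492). The summed intensity of the 19 was 5714 to 6384 with IFN-γ and 7389 to 7882 in medium at 16 hours, and 3805 to 3838 with IFN-γ and 4195 to 4232 in medium at 4 hours. Bright genes weigh most in such a sum, among them Apoe, at 11.01 and 11.02 in medium at 16 hours. IFN-γ against medium gave -0.76 for Apoe at that time (adjusted p = 0.0728, blocked 0.0111). Of the 19, 6 were below the antisense controls on all arrays, Mertk, Axl, Maf, Siglec1, Marco and Cd5l.

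Of 9 other measured scavenger and lipid uptake receptors, which include Cd14 and Marco of the macrophage list, 0 were called with time in medium by limma and 2 rose with the block, Lrp1 (0.49, adjusted p = 0.0539, or 0.00905 with the block) and Marco (0.35, adjusted p = 0.308, or 0.0494 with the block). Lrp1, a large receptor of the LDL receptor family, rose with IFN-γ by 0.67 (adjusted p = 0.0236). Cd36 differed by 0.16 in medium and was below the controls on all arrays. The median of the 9 receptors over time in medium was 0.04, as for all genes. Of 20 measured genes of the CSF1 axis and lineage transcription factors, 0 were called with time, or for IFN-γ at either time, by limma, and the block called 2 higher and 2 lower with time in medium and 2 higher and 1 lower with time under IFN-γ. For IFN-γ at 16 hours the block called 1 gene of this list, Klf4, a transcription factor, higher (0.79, adjusted p = 0.274, blocked 0.0217), the opposite direction to the 9 genes, with medium at 16 hours below the controls. Cebpa, a myeloid transcription factor, was lower over both times with IFN-γ (-0.52, SE 0.09, adjusted p = 0.0294). Of 19 measured lysosomal proteins 4 rose with time in medium (9 with the block): Ctsd (1.05), Ctsl (1.45), Ctsb (0.77) and Hexa (0.77), with a median of 0.39 over the 19. With IFN-γ 6 rose with time, these 4 among them. Ctsl was lower over both times with IFN-γ (-0.85, adjusted p = 0.0356). Of 6 other C-type lectin receptors, Clec4d rose in medium (1.16, adjusted p = 0.0328) and stood at -1.0 for IFN-γ against medium at 16 hours (adjusted p = 0.343, blocked 0.00406). With time the block called 2 of these 6 higher and 1 lower in medium, and 3 higher and 1 lower under IFN-γ, where limma called 0. The lower one was Ly75 in both, which is also in the CD8+ dendritic cell list.

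Markers of other cells the sort could hold were set beside these changes. Of 13 measured CD8+ dendritic cell markers, 0 rose and 1 fell with time in medium, Irf8 (-0.47, adjusted p = 0.0385), a transcription factor these cells require, and 5 fell with the block. Irf8 rose with IFN-γ at 16 hours (0.82, adjusted p = 0.0158). Cd8a differed by 0.11 with IFN-γ at 16 hours and Itgax by -0.12, while over time in medium each differed by -0.05. Of 5 monocyte markers 2 rose with time in medium, Ccr2 (0.98, adjusted p = 0.0309) and Vcan (0.84, adjusted p = 0.00329), and their summed intensity was 607 to 687 at 16 hours and 459 to 480 at 4 hours. Vcan fell with IFN-γ at 16 hours (-0.71, adjusted p = 0.035), where the sum was 584 to 603 with IFN-γ. It was above the controls in medium at 16 hours and below them in the other 3 groups, so the size of both its changes is uncertain. Of 5 erythroid markers 2 fell in medium, the globin genes Hba-a1 (-1.15, adjusted p = 0.000988) and Hbb-b2 (-1.67, adjusted p = 0.00294), of which Hbb-b2 was below the controls on all arrays, and their sum was 281 to 313 at 16 hours and 494 to 502 at 4 hours. With IFN-γ both globin genes also fell with time (Hba-a1 -0.82, adjusted p = 0.00824, and Hbb-b2 -1.47, adjusted p = 0.00853), and Ccr2 rose (1.03, adjusted p = 0.0367). Of 13 neutrophil markers 1 fell with time in medium, Ngp (-0.48, adjusted p = 0.0395). Of 6 CD8- dendritic cell markers Itgam, also in the macrophage list, rose (1.12, adjusted p = 0.00858) and Relb fell (-0.72, adjusted p = 0.0221) in medium. The block called 2 in each direction. Itgam was below the controls in medium at 4 hours, so the size of its rise is uncertain. Of 8 B cell markers 0 were called in medium and 2 rose with the block, while with IFN-γ Cd22 (0.89, adjusted p = 0.0228) and Blk (0.62, adjusted p = 0.0436) rose with time and 7 did with the block. With IFN-γ the summed intensity of the B cell markers was 8299 to 8717 at 16 hours and 6416 to 6688 at 4 hours. In medium it was 8019 to 8131 at 16 hours and 6925 to 7435 at 4 hours. The neutrophil markers summed to 4889 to 5096 and 5609 to 5664, and the CD8+ dendritic cell markers to 3542 to 3752 and 4432 to 4630. None of the T cell (7), NK cell (5), endothelial (7) or plasmacytoid dendritic cell (6) markers was called with time in medium by limma. The block called 1 T cell marker lower and 1 NK cell and 1 neutrophil marker higher. With time under IFN-γ it called 5 CD8+ dendritic cell markers lower and 1 higher (1 lower by limma), 2 CD8- markers in each direction (1 lower by limma), 1 T cell marker lower, and 1 endothelial and 1 plasmacytoid marker higher. For IFN-γ at 16 hours it added 1 CD8+ marker, Flt3 (-0.47, adjusted p = 0.226, blocked 0.0386), and 1 CD8- marker, Itgam (-0.55, adjusted p = 0.794, blocked 0.0226), both lower. The part of other cell types in the changes of the 9 genes was not tested.

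**Figure D4:**
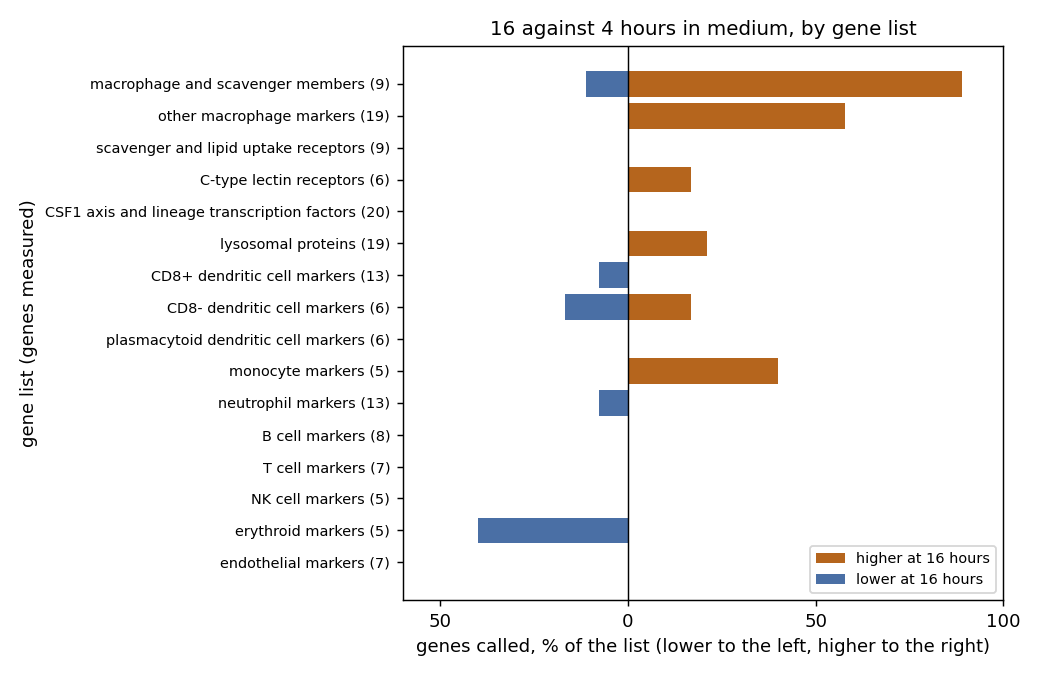
Share of genes called between 16 and 4 hours in medium (x axis, percent of the list, higher at 16 hours to the right and lower to the left) for the 9 genes and 15 gene lists (y axis, genes measured in brackets). The 9 genes stand at 8 higher and 1 lower, and other macrophage markers at 11 of 19 higher. Background over all genes was 1.61% higher and 3.04% lower.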

How the data were processed

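Cultured CD8+ dendritic cells were profiled on 8 MG-U74Av2 arrays (Affymetrix), 2 for each group, with groups and replicate numbers from the sample titles. Per the submitters' processing notes the tool was RMA, whose version and settings are not given in the sources used here. The authors deposited intensity per probe set on a linear scale, and log2 was taken here with no pseudocount or further normalization. The 66 array controls among the 12488 probe sets were dropped. Symbols came from the platform annotation, matched by gene number to RefSeq (GRCm38.p6): 10833 probe sets had 1 symbol (10817 matched), 396 several and 1193 none. For gene counts each of 8251 genes was represented by its brightest probe set.

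Two-sided limma tests (version 3.58.1, R 4.3.3, lmFit and eBayes) compared the groups in 1 fit of 4 group means over all 8 arrays, with an additive model of time and treatment for the effect over both times, adjusted by Benjamini-Hochberg over 12422 probe sets and called at 0.05. The number of arrays limits the precision. The differences between array 1 and array 2 correlated between groups at 0.37 to 0.74 in 6 pairs of groups, all above 0.1. Equal numbers were therefore treated as pairs in the fit with the replicate block, an alternative. The main fit has no block and does not use the pairs. That pairing comes from the data, since no label states it. Blocked values stand beside results of the 9 genes whose call they change, and for the gene lists mainly as counts. Named are the 9 genes, up to 4 genes with the smallest p of a list, Cd8a and Itgax. Also named are the 3 genes with the highest Pearson r to each of the 9, among the candidates described above. The members and lists were chosen with earlier results of these data known. The code was tested on simulated data.

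Alternatives were quantile normalization, median centring, a filter on the dimmest 40% of probe sets, a trended robust prior, array weights, the replicate block, fits restricted to the arrays compared, leaving out each array, averaging a gene's probe sets, and stricter thresholds (adjusted p of 0.01, or a minimum log2 difference of 1).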

Additional observations from a re-analysis of the deposited data

How the results depend on the processing

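Counts here are of the 14 probe sets of the 9 genes. Some settings call more over all probe sets too. For IFN-γ at 4 hours the main fit called 32 of them in both directions together. Array weights called 167, only the arrays compared 93 and the replicate block 157. For IFN-γ at 4 hours, 0 were called, against 3 with array weights, with only the arrays compared or with the replicate block, and 0 to 2 with an array left out. For IFN-γ at 16 hours, 2 were called, against 5 with the replicate block, 1 with median centring, without the dimmest 40% of probe sets or with the trended prior, 0 with array weights, only the arrays compared, an adjusted p of 0.01 or a log2 difference of at least 1, and 0 to 2 with an array left out. With time in medium 10 were called, 3 to 10 with an array left out, with no other alternative past 1.5 times. With time under IFN-γ 8 were called, against 4 at an adjusted p of 0.01 or a log2 difference of at least 1, and 1 to 8 with an array left out. For the effect over both times 5 were called, against 3 with median centring, 1 at an adjusted p of 0.01, 0 at a log2 difference of at least 1, and 1 to 4 with an array left out. For the difference of effects the count was 0 throughout. The cause was not tested where it is not the setting itself. Directions of the 9 genes held except in the difference of effects, where Adgre1 (-0.03) was 0.057 with 1 mean value per gene, and with an array left out ran from -0.24 to 0.18 for Adgre1, -0.35 to 0.14 for Msr1 and -0.20 to 0.29 for Lyz2. The filter on dim probe sets removed Mrc1 and Clec4a2, which gave no value there. The replicate block changed no call of the 9 genes' brightest probe sets other than those given above. No scaling moved the median of all probe sets by more than 0.0438.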
